A study of Homo sapiens with 24 samples.

Results

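Ribonucleotide reductase and 7 other enzymes of nucleotide synthesis and salvage were followed in 3 human estrogen receptor-positive (ER+) breast cancer cell lines grown in low or high glucose. The set consisted of 9 genes of the 18889 in the table of expression values: RRM1 and RRM2 (the subunits of ribonucleotide reductase), TYMS and DUT (thymidylate supply), TK1 and DCK (deoxynucleoside salvage), CAD (de novo pyrimidine synthesis), and PPAT and IMPDH2 (de novo purine synthesis). They were found by symbol, with 1 row for each. The genes were chosen by their log2 changes between the glucose conditions in these same cultures, so those changes are a description. No p-value is printed for them, and calls on them describe the choice and are no test of it. The changes of 55 other genes of the pathway were tested. That list, too, was chosen with earlier results of these data known.

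Cells divide only if they can supply deoxynucleotides to the replication fork. Ribonucleotide reductase makes them by reducing ribonucleoside diphosphates. Its large subunit, RRM1, carries the active site, and its small subunit is either RRM2, made in S phase and degraded afterwards, or the p53-inducible RRM2B, which serves cells outside S phase. Thymidylate is then made from dUMP by thymidylate synthase (TYMS), for which the dUTPase DUT provides substrate, or is salvaged by thymidine kinase 1 (TK1). Purine and pyrimidine rings themselves are built de novo by pathways entered through PPAT and CAD and serve RNA as well as DNA. Many genes of the deoxynucleotide branch are transcribed at the G1/S transition under E2F factors.

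The study compared 5 mM glucose, its control, with 25 mM glucose, which models hyperglycemia, after 48 hours. HCC1500, MDA-MB-175 and ZR-75-30 are established breast carcinoma lines, and each was grown as 4 cultures per condition, giving 24 cultures in 6 groups. Where 3 values follow each other without a name, they stand for MDA-MB-175, then ZR-75-30, then HCC1500. Per the study's methods for its glucose experiments, all cultures were in medium without serum and were first conditioned in low glucose. Some experiments of the study had mannitol in the low glucose medium to match osmolarity. Whether these cultures did is not given in the sources used here, and the part of osmolarity was not tested. The labels number the replicates but do not say whether they came from separate passages, so that spread and p-values may be technical.

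Values are the normalized read counts as deposited, which came out as whole reads divided by a single factor for each culture. The recovered reads per culture ranged from 9140024 to 17998819, and the genes followed here rested on 100 (DUT in HCC1500) to 5428 reads (IMPDH2 in ZR-75-30), far over the 3 reads taken as the floor of detection, which corresponded to values of 0.953 to 2.29. In HCC1500 the low glucose cultures (13190982 to 17998819 reads) and the high glucose cultures (9423472 to 12140912) did not overlap in depth. HCC1500 high glucose replicate 3 stood apart from its group. In it, 23.9% of 13310 genes were over 1 log2 unit away from what the remaining 3 cultures averaged, a share that was 1.74% or less everywhere else, and the deviation ran with transcript length (Spearman's rho of -0.73 across 11963 genes, which are not independent replicates). Its values were above the other 3 for the short transcripts of TK1, TYMS, IMPDH2 and DUT (1431 to 2141 bases), so many results for HCC1500 are given with and without it. Where a single glucose change is given for HCC1500, replicate 3 was in the fit. Of the 8 luminal epithelial markers, including ESR1, each was detected in every group, whereas the 5 fibroblast markers summed to at most 262 and CD14, the 1 leukocyte marker matched, was at 0.431 to 3.04 in the low and 8.26 to 15.2 in the high glucose cultures of HCC1500, and at 26.7 in replicate 3. The matched endothelial markers, VWF and CDH5, together reached 77.7 at most. The endothelial marker PECAM1 and the leukocyte markers PTPRC, CD3E and MS4A1 had no row. The part of other cell types in the results was not tested.

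RRM1, RRM2 and TK1 were lower in high glucose in every line, and RRM2 was at 0.686, 0.224 and 0.299 of its low glucose level in the 3 lines. PPAT and IMPDH2, of de novo purine synthesis, went down in some lines and up in others. In MDA-MB-175, 8 of the 9 genes were called lower and 0 higher (limma on log2(value + 1), Benjamini-Hochberg adjusted p under 0.05 over all genes), where 13.7% of 17029 genes were called lower. In ZR-75-30, 6 were called lower and 1 higher, against 22.7% and 23.4% of 15834 genes. In HCC1500, 4 were called lower and 1 higher (13% and 7.46% of 16361 genes), and without replicate 3 it was 7 lower and 2 higher (37.7% and 20.9% of 16235 genes). The 3 genes called lower in all lines compare with 3.32% of 14636 genes, and leaving out replicate 3 added TYMS and DUT, giving 5 (6.74% of 14572 genes). The glucose conditions did not overlap for 7 of the 9 genes in each line, where 26.6%, 42% and 32.4% of all genes did not overlap. Without replicate 3 it was all 9 in HCC1500, against 58.1%. These counts describe genes chosen for this contrast and carry no weight of their own. With median-of-ratios scaling in place of the deposited scaling, 48.9% of the genes called in HCC1500 were higher, against 36.4%.

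**Figure D1:**
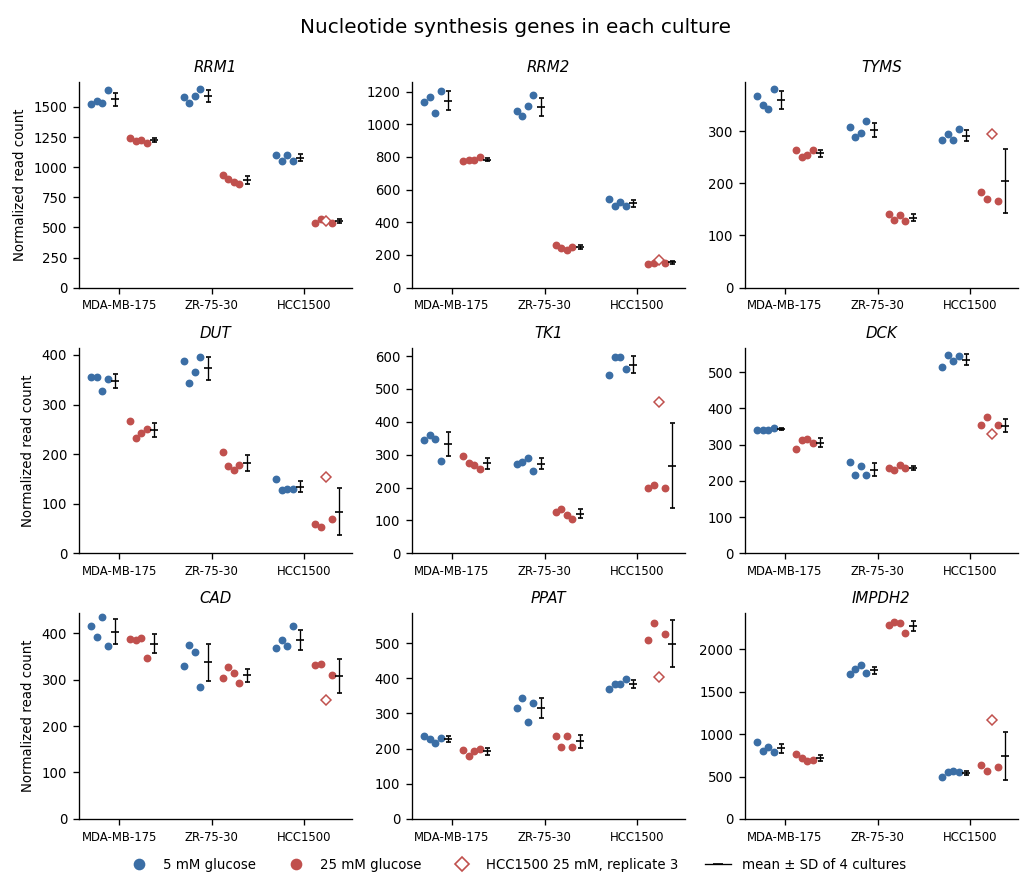
Normalized read counts (vertical axes, linear, from 0) of the 9 genes in each of the 24 cultures, by line and glucose condition; points are cultures, black marks the mean ± SD of 4, and the open diamond is HCC1500 high glucose replicate 3. RRM2 lay at 1070.4 to 1204 in MDA-MB-175 and 1049 to 1181 in ZR-75-30 at 5 mM glucose and fell to 233 to 263 in ZR-75-30 at 25 mM, whereas IMPDH2 was higher at 25 mM in ZR-75-30 and the diamond stood above its group for TYMS, DUT, TK1 and IMPDH2.

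The bases upstream of start sites of RRM2, RRM1, TK1 and DUT are shown as examples. The CCAAT box, which the factor NF-Y binds, and E2F-type sites are elements known from promoters of genes of the G1/S transition. Where a gene had several start sites, the window with the most matches is shown. TYMS, whose pattern was closer to that of RRM2 than those of TK1 and DUT, is not shown. A part of these elements in the changes was not tested. Capitals mark matches, on either strand, to CCAAT or to an E2F-type site, searched as TTTCCCGC, TTTGGCGC, TTTCGCGC or TTTGCCGC. The sequences are the 250 bases before a RefSeq start site in GRCh38.p14, written 5′ to 3′ on the strand of the gene.
RRM2, chr2:10122489-10122738, plus strand: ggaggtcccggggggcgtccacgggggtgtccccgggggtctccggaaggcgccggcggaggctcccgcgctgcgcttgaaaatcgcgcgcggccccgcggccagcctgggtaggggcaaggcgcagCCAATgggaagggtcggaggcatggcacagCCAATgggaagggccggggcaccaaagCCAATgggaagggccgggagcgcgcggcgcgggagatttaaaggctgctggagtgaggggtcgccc
RRM1, chr11:4094435-4094684, plus strand: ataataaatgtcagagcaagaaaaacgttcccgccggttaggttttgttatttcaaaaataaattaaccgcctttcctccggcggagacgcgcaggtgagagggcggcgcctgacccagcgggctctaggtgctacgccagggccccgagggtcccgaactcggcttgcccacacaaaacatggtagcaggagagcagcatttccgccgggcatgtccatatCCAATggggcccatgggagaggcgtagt
TK1, chr17:78187053-78187302, minus strand: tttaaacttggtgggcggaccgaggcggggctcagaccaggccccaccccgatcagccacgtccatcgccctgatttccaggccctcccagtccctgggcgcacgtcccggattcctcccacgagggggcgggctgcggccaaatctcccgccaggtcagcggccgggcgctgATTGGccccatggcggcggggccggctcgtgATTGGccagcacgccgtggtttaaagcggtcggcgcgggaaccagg
DUT, chr15:48331947-48332196, plus strand: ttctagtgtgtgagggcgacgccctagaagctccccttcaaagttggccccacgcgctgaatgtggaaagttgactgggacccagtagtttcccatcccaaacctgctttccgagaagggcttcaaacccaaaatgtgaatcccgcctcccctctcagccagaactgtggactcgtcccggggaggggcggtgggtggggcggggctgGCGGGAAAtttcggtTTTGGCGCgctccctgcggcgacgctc

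The RRM2 window held 3 CCAAT boxes, that of TK1 2 and that of RRM1 1, and none of the 3 held an E2F-type match. The DUT window held 2 E2F-type matches and no CCAAT box. Over 34796 RefSeq windows of the same length, 32% held at least 1 CCAAT box, 9.53% at least 2, 2.92% at least 3, and 2.78% an E2F-type match. Windows were found for 8 of the 9 genes, 13 in all, since RRM2, TK1 and DUT have several start sites, and the other window of TK1 and the other 3 of DUT held neither motif, whereas the other one of RRM2, which overlaps the window shown, held 1 CCAAT box. TYMS had 1 E2F-type match, and CAD 1 CCAAT box. DCK and PPAT had neither but 1 E-box each (CACGTG, in 6.31% of windows). IMPDH2 had no entry. A match is a run of letters and was not tested as a site.

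RRM2 (ENSG00000171848, chromosome 2, 10260825 to 10351851, plus strand; coordinates are GRCh37 from a later GENCODE release) was the gene that changed most of the set. In MDA-MB-175 it had 1133, 1167, 1070.4 and 1204 normalized read counts in the low glucose cultures and 778, 780.5, 779.6 and 798 in the high glucose cultures. In ZR-75-30 it had 1080.3, 1049, 1114 and 1181 in low and 263, 244, 233 and 247 in high glucose, and in HCC1500 543, 502, 524 and 498 against 146, 153, 166 and 150.5. Every high glucose culture was below every low glucose culture of its line, replicate 3 of HCC1500 included. The log2 change was -0.54 ± 0.04 (SE) for MDA-MB-175, -2.16 ± 0.05 for ZR-75-30, and -1.74 ± 0.08 for HCC1500, or -1.78 ± 0.05 without replicate 3. Among all tested genes the change ranked 14 from the lowest of 15834 in ZR-75-30, 87 of 16361 in HCC1500 and 827 of 17029 in MDA-MB-175. The change in ZR-75-30 minus that in MDA-MB-175 was -1.62 ± 0.08 on the log2 scale (SE), and the change in HCC1500 minus that in MDA-MB-175 was -1.20 ± 0.08.

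RRM1 (ENSG00000167325, chromosome 11, 4115937 to 4160162, plus strand), the large subunit, moved in the same direction and less. Its values were 1523, 1545, 1536 and 1643 at low and 1242, 1216, 1229 and 1201 at high glucose in MDA-MB-175. They were 1583, 1532, 1594 and 1649.8 against 932, 903, 879 and 859 in ZR-75-30, and 1099.5, 1051, 1105 and 1052 against 533, 573, 557 and 540.1 in HCC1500. The conditions were separate in each line. The log2 change was -0.35 ± 0.04, -0.83 ± 0.04 and -0.97 ± 0.07 (SE) in that order. Taken per kilobase of transcript (the MANE Select transcript), RRM1 was above RRM2 in every culture. The ratio of RRM2 to RRM1 per kilobase had a median of 0.712 at low and 0.615 at high glucose in MDA-MB-175. It went from 0.667 to 0.267 in ZR-75-30 and from 0.459 to 0.266 in HCC1500, and its low and high glucose ranges did not overlap in any line.

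The alternative small subunit, RRM2B (ENSG00000048392, chromosome 8, minus strand), was not among the 9 genes, and its values were higher in high glucose. In ZR-75-30 its values were 409.9, 387, 396 and 414 at low and 510.4, 527, 537 and 557 at high glucose, a log2 rise of 0.41 ± 0.05 (SE; limma adjusted p = 6.9e-07). In HCC1500 they were 811, 794, 779 and 778 against 1236, 1347, 922 and 1286, a rise of 0.58 ± 0.12 (adjusted p = 0.01), or 0.70 ± 0.03 without replicate 3 (adjusted p = 5.2e-12). This call in HCC1500 was lost when values were rescaled to a common total, at a log2 change of 0.51. In MDA-MB-175, 612, 660.0, 708 and 717 stood against 708, 744, 782 and 709, an overlapping difference of 0.13 ± 0.05 that did not pass (adjusted p = 0.11), though it did without low glucose replicate 4 (0.16). The 3 changes differed between lines (limma F test of line by glucose, adjusted p = 0.014, and 7.6e-07 without replicate 3).

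Of the summed level of both small subunits per kilobase, RRM2B made up a median of 28.4% at low and 38.9% at high glucose in MDA-MB-175. The share went from 19.8% to 60.1% in ZR-75-30 and from 51% to 85.3% in HCC1500. Replicate 3 of HCC1500 had the lowest share of its group, 79.1%, and still lay above all low glucose cultures, which reached 51.9%. RRM2 was therefore the larger part at low glucose in ZR-75-30 and MDA-MB-175, and RRM2B the larger part at high glucose in HCC1500 and ZR-75-30. In HCC1500 RRM2B was already slightly the larger part at low glucose, at 50.4% to 51.9%. The share uses RRM2, whose change chose it, and has no test.

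**Figure D2:**
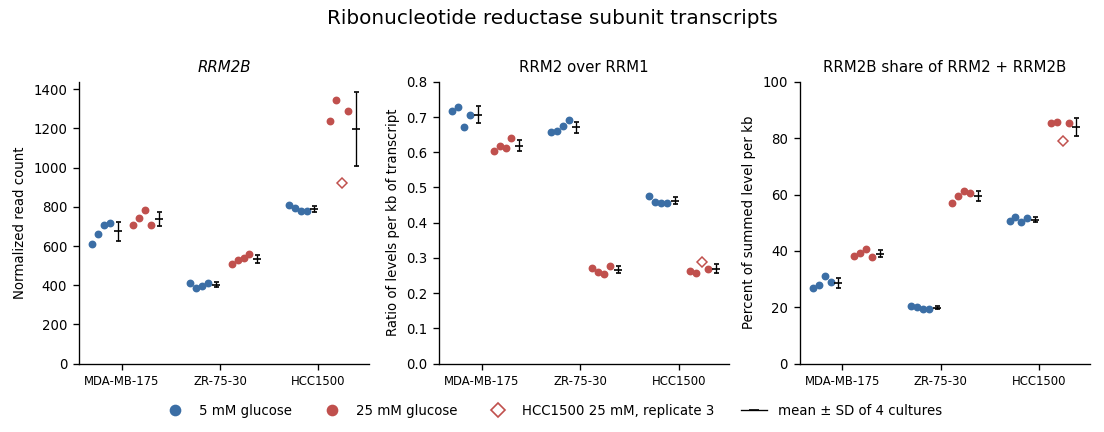
Left, normalized read counts of RRM2B; middle, the ratio of RRM2 to RRM1 per kilobase of transcript; right, RRM2B as a percent of the summed RRM2 and RRM2B level per kilobase. Points are cultures by line and glucose, black marks the mean ± SD of 4, and the open diamond is HCC1500 high glucose replicate 3. The share of RRM2B was above its low glucose range in every high glucose culture, with medians of 38.9%, 60.1% and 85.3% in the 3 lines.

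TYMS (ENSG00000176890, chromosome 18, 657653 to 673578, plus strand), which methylates dUMP to dTMP, had 367, 350.4, 343 and 381 normalized read counts at low and 264, 250.5, 254 and 263 at high glucose in MDA-MB-175, and 308, 288, 296 and 318 against 141, 129, 139.8 and 127 in ZR-75-30. In HCC1500 the low glucose values were 283, 294, 283 and 304 and the high glucose values 183, 171, 295 and 166, of which replicate 3 lay within the low glucose range. The log2 change was -0.48 ± 0.05, -1.17 ± 0.06 and -0.55 ± 0.18 (SE), the last not past the threshold. In HCC1500 TYMS was called lower without replicate 3 (-0.74 ± 0.05) and, with it, under either rescaling, with edgeR and with DESeq2 (-0.49 to -0.62). Of the exons of TYMS, 1160 of 2421 bases are also covered on the other strand by TYMSOS and ENOSF1. Whether counting used strand is not given in the sources used here, so reads of these genes may not have been told apart.

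DUT (ENSG00000128951, chromosome 15, 48623208 to 48635570, plus strand) removes dUTP and supplies dUMP. Its values were 356, 355, 327 and 352 against 266, 232, 243 and 249.7 in MDA-MB-175, and 387, 344, 366 and 396 against 204, 177, 168 and 178 in ZR-75-30, for low and high glucose. In HCC1500 it had 150.5, 127, 130.0 and 129 at low and 58.99, 53.2, 154 and 69.2 at high glucose, and here only replicate 3 was above the low glucose range. The log2 change was -0.49 ± 0.06 for MDA-MB-175, -1.04 ± 0.07 for ZR-75-30, and -0.80 ± 0.30 for HCC1500, the last not past the threshold, or -1.14 ± 0.10 without replicate 3, and it was called with DESeq2 and when rescaled to a common total. DUT is also uncertain as a locus, since 8 annotated pseudogenes carry its name and DUT-AS1 covers 533 bases of its exons on the other strand. Annotated pseudogenes also carry the names of RRM2 (3), TYMS (2) and PPAT (2). None of these pseudogenes has a row of its own.

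Other genes of thymidylate supply were measured as well. DTYMK, the kinase that phosphorylates dTMP, fell by 0.86 on the log2 scale in ZR-75-30 (adjusted p = 8.1e-08). Its change of -0.26 ± 0.08 in MDA-MB-175 (adjusted p = 0.02) lost the call on leaving out low glucose replicate 1 or 3 or high glucose replicate 2 or 3. In HCC1500 DTYMK had a change of -0.33 ± 0.34 that did not pass (adjusted p = 0.55), and it fell without replicate 3 (-0.72 ± 0.08, adjusted p = 1.9e-07). DCTD, which deaminates dCMP to dUMP, rose in ZR-75-30 from 137 ± 12.2 (SD, n = 4) to 208 ± 12.1 (0.60 ± 0.08, adjusted p = 2.9e-06), whereas its changes of -0.00058 ± 0.04 in MDA-MB-175 and -0.29 ± 0.09 in HCC1500 did not pass (adjusted p = 0.99 and 0.062), the latter passing without replicate 3 (-0.34 ± 0.07, adjusted p = 2.6e-04).

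TK1 (ENSG00000167900, chromosome 17, 76170172 to 76183314, minus strand), the S phase thymidine kinase of the cytosol, had 273, 277, 289.9 and 250.4 at low and 125, 136, 116 and 103 at high glucose in ZR-75-30. In HCC1500 it had 544, 596, 596 and 561 at low and 198, 208, 459.6 and 198 at high glucose, with replicate 3 above the rest of its group but below every low glucose culture. In MDA-MB-175 the values 344, 359.8, 346 and 280.3 against 296, 274, 267 and 256 overlapped through 1 low glucose culture. The log2 change was -0.28 ± 0.07, -1.18 ± 0.08 and -1.21 ± 0.26 (SE), and -1.51 ± 0.05 in HCC1500 without replicate 3.

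DCK (ENSG00000156136, chromosome 4, 71858255 to 71896631, plus strand) phosphorylates deoxycytidine and also activates drugs such as gemcitabine and cytarabine. In HCC1500 it lay at 514 to 549 with low and 329 to 376 with high glucose, a log2 change of -0.60 ± 0.07. In ZR-75-30 the ranges overlapped (215 to 253 and 231 to 244; 0.04 ± 0.06), and rescaling to a common total turned that change to -0.0025. In MDA-MB-175 its change of -0.17 ± 0.05 was called lower, but not on leaving out high glucose replicate 1 or 4, nor with median-of-ratios scaling, edgeR or DESeq2. DCK shares 199 bases of exon with MOB1B on the same strand. The 2 mitochondrial kinases, TK2 and DGUOK, passed in no line, and both were called lower in HCC1500 without replicate 3.

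Among the enzymes that build the bases de novo, the lines went different ways. CAD (ENSG00000084774, chromosome 2, 27440237 to 27466811, plus strand), which carries the opening steps of pyrimidine synthesis, ranged from 374 to 434 at low and 347 to 389 at high glucose in MDA-MB-175. Its ranges were 284 to 376 and 293 to 327 in ZR-75-30, and 369 to 417 and 255 to 334 in HCC1500, where they did not overlap. Its change of -0.10 ± 0.06, -0.12 ± 0.07 and -0.33 ± 0.11 was called in no line, and the change of -0.25 ± 0.05 in HCC1500 without replicate 3 was called lower. Leaving out ZR-75-30 low glucose replicate 4 gave a call there too, at -0.20.

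PPAT (ENSG00000128059, chromosome 4, 57259528 to 57301781, minus strand), the amidotransferase that commits phosphoribosyl pyrophosphate to purines, went in opposite directions between lines. It was lower in high glucose in MDA-MB-175 (236, 226, 215 and 231 against 197, 179, 193 and 199.8) and in ZR-75-30 (314, 343, 275 and 329 against 235, 205, 236 and 205). In HCC1500 it was higher, with 369.8, 385, 383 and 397 at low and 509, 557, 402 and 525 at high glucose, and the conditions did not overlap in any of the 3 lines. The log2 change was -0.24 ± 0.06, -0.51 ± 0.07 and 0.37 ± 0.11 (SE), and 0.46 ± 0.04 in HCC1500 without replicate 3, which had the lowest value of its group. The call in HCC1500 was lost on leaving out any 1 of the other 7 cultures of the line. It was also lost on rescaling, with edgeR, and with the replicate number fitted as a block. The change in HCC1500 exceeded that in ZR-75-30 by 0.88 ± 0.12 on the log2 scale, and by 0.98 ± 0.09 without replicate 3.

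IMPDH2 (ENSG00000178035, chromosome 3, 49061758 to 49066880, minus strand) makes the xanthosine monophosphate from which guanine nucleotides derive. In ZR-75-30 it was higher in high glucose, with 1713, 1764, 1811 and 1723 at low and 2284, 2320.2, 2307 and 2194 at high glucose (0.38 ± 0.04). In MDA-MB-175 it was lower, 903, 796, 845 and 790.5 against 768, 715, 688 and 696 (-0.22 ± 0.05). In HCC1500, 499, 551, 566 and 549 stood against 633, 569, 1168 and 609, and replicate 3 set much of the change of 0.39 ± 0.21, which was not called. Without it the change was 0.16 ± 0.05, called higher. An unnamed gene of the later annotation shares 1680 bases of exon with IMPDH2 on the same strand, so its reads could have been split.

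**Figure D3:**
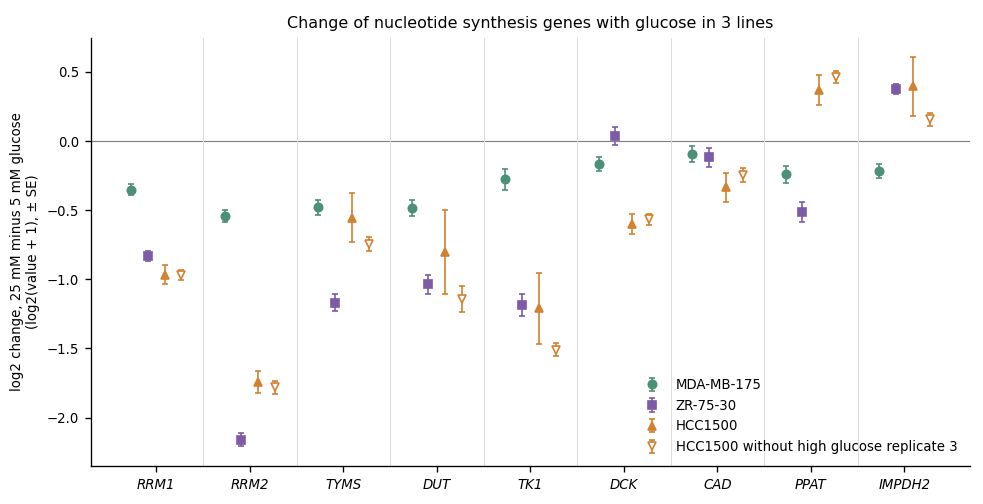
Log2 change of each gene, 25 mM minus 5 mM glucose, on the log2(value + 1) scale (vertical axis) with its standard error, in MDA-MB-175 (circles), ZR-75-30 (squares), HCC1500 (filled triangles) and HCC1500 without high glucose replicate 3 (open triangles). RRM1, RRM2, TYMS, DUT and TK1 lay below 0 in each fit, whereas PPAT was above 0 in HCC1500 and IMPDH2 in ZR-75-30 and HCC1500.

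Of the 10 other genes of de novo purine synthesis, 6 were lower and 1 higher for MDA-MB-175, 6 lower and 0 higher for ZR-75-30, and 4 lower and 0 higher for HCC1500, or 7 lower and 1 higher without replicate 3. Beside them, 13.7%, 22.7% and 13% of all tested genes were called lower and 11.9%, 23.4% and 7.46% higher in the 3 lines. In HCC1500 without replicate 3 it was 37.7% and 20.9%. PRPS2, PAICS and GMPS were lower in all 3 lines. PRPS2 makes the phosphoribosyl pyrophosphate that PPAT uses and changed by -0.25 ± 0.06, -0.33 ± 0.06 and -0.52 ± 0.09 (adjusted p = 0.0043, 2.1e-04 and 0.005). PAICS, which adds carbon dioxide and aspartate to the growing ring, changed by -0.26 ± 0.04, -0.29 ± 0.04 and -0.29 ± 0.07 (adjusted p = 1.4e-04, 1.7e-06 and 0.016). GMPS, which aminates the product of IMPDH2, changed by -0.13 ± 0.04, -0.28 ± 0.04 and -0.47 ± 0.07 (adjusted p = 0.043, 1.1e-05 and 0.0027). The call of GMPS in MDA-MB-175 was lost on leaving out low glucose replicate 2 or 4 or any 1 high glucose culture, and that of PAICS in HCC1500 on leaving out any 1 low glucose culture or high glucose replicate 4. Both were also lost with median-of-ratios scaling and with edgeR, GMPS with DESeq2, and PAICS with the replicate number fitted as a block. Of 4 other genes of de novo pyrimidine synthesis, 1 was lower for MDA-MB-175, 2 for ZR-75-30, and 1 for HCC1500 (2 without replicate 3), and none was higher in these 4 fits.

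The folate enzymes that carry carbon to purines and thymidylate did not move together. MTHFD1, the cytosolic enzyme of 3 activities, was lower in all lines, with changes of -0.22 ± 0.04 in MDA-MB-175 (adjusted p = 6.0e-04), -0.50 ± 0.04 in ZR-75-30 (adjusted p = 1.9e-09) and -0.43 ± 0.07 in HCC1500 (adjusted p = 0.0025). SHMT2, the mitochondrial serine hydroxymethyltransferase, rose in MDA-MB-175 (0.26 ± 0.06, adjusted p = 0.0025) and ZR-75-30 (0.21 ± 0.04, adjusted p = 4.4e-04). In HCC1500 its change was 0.08 ± 0.19 (adjusted p = 0.82), which turned to -0.13 ± 0.04 without replicate 3 (adjusted p = 0.0034). MTHFD2, its mitochondrial neighbor in the pathway, changed by -0.11 ± 0.04 in MDA-MB-175 (adjusted p = 0.045), a call lost in 10 alternatives, and by 0.01 ± 0.04 and 0.09 ± 0.08 in ZR-75-30 and HCC1500 (adjusted p = 0.91 and 0.44). Over the 6 folate genes, 3 were lower and 1 higher for MDA-MB-175, 2 lower and 2 higher for ZR-75-30, and 1 of 5 tested was lower for HCC1500 (3 of 5 without replicate 3). Called in either direction were 25.7%, 46% and 20.5% of all tested genes, and 58.5% in HCC1500 without replicate 3.

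Of the 9 genes of ribonucleoside salvage and nucleotide kinases, 3 were lower and 1 higher for MDA-MB-175, 4 lower and 0 higher for ZR-75-30, and 0 changed for HCC1500, where 4 were lower without replicate 3. The shares of all tested genes called in either direction were 25.7%, 46% and 20.5%, or 58.5% in HCC1500 without replicate 3. Of the genes of nucleotide breakdown, 2 of 8 tested were higher and 1 lower for MDA-MB-175, 1 of 7 higher and 1 lower for ZR-75-30, and 1 of 9 higher and 0 lower for HCC1500, or 1 of 8 higher and 2 lower without replicate 3. UPP1, the uridine phosphorylase, rose in MDA-MB-175 from 24.2 ± 2.31 to 74.9 ± 9.57 (1.59 ± 0.13, adjusted p = 2.0e-07). It also rose in ZR-75-30, at a lower level, from 5.97 ± 2.89 to 11.1 ± 2.54 (0.89 ± 0.33, adjusted p = 0.033), a call lost with DESeq2 and on leaving out any 1 of 5 cultures. Its change in HCC1500 was 0.75 ± 0.45 (adjusted p = 0.28), or 0.29 ± 0.24 without replicate 3 (adjusted p = 0.31), and did not pass. NT5E, the ectonucleotidase CD73, rose in MDA-MB-175 too (0.62 ± 0.12, adjusted p = 0.0014), whereas in the other 2 lines it was near the floor of detection. PNP, the purine nucleoside phosphorylase, rose in HCC1500 from 358 ± 21.1 to 781 ± 256 (1.08 ± 0.19, adjusted p = 0.005, and 0.87 ± 0.05 without replicate 3) and fell in ZR-75-30 (-0.30 ± 0.05, adjusted p = 7.4e-05). In MDA-MB-175 its change was -0.08 ± 0.05 (adjusted p = 0.26), and the 3 changes differed (F test, adjusted p = 5.0e-06).

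Among the 10 regulators of this program, 5 were lower and 1 higher for MDA-MB-175, 7 lower and 1 higher for ZR-75-30, and 4 lower and 2 higher for HCC1500, or 7 lower and 2 higher without replicate 3. Calls in either direction made up 25.7%, 46% and 20.5% of all tested genes, and 58.5% in HCC1500 without replicate 3. E2F2, an activating E2F, was lower in all 3 lines, with changes of -0.40 ± 0.11 in MDA-MB-175 (adjusted p = 0.013), -1.71 ± 0.14 in ZR-75-30 (adjusted p = 8.1e-09) and -1.46 ± 0.13 in HCC1500 (adjusted p = 1.8e-04). E2F7 and E2F8, the atypical repressors, and CCNF, whose product marks RRM2 for degradation, were also lower in all 3 lines. Their changes in ZR-75-30 were -1.83 ± 0.23, -1.40 ± 0.10 and -1.30 ± 0.07 (adjusted p = 2.7e-06, 2.2e-09 and 1.0e-10). In MDA-MB-175 they were -0.57 ± 0.08, -0.36 ± 0.05 and -0.47 ± 0.07 (adjusted p = 1.0e-04, 9.8e-05 and 9.9e-05), and in HCC1500 -1.01 ± 0.25, -0.74 ± 0.18 and -0.81 ± 0.10 (adjusted p = 0.023, 0.02 and 0.0011). The calls of E2F7 and E2F8 in HCC1500 were lost on leaving out low glucose replicate 1, 2 or 3, E2F7 also on leaving out low glucose replicate 4 and E2F8 high glucose replicate 4, and both with median-of-ratios scaling and with edgeR, and held without replicate 3 of high glucose (adjusted p = 9.7e-07 and 2.5e-04). That of E2F8 was also lost with the replicate number fitted as a block. E2F1 fell in ZR-75-30 (-1.17 ± 0.07, adjusted p = 1.6e-10) and in MDA-MB-175 (-0.21 ± 0.07, adjusted p = 0.029), the latter call lost on leaving out any 1 of 5 cultures. Its change of -0.67 ± 0.25 in HCC1500 did not pass (adjusted p = 0.095), although it was called lower when values were rescaled to a common total (-0.73) and with DESeq2 (-0.57), and without replicate 3 it was -0.96 ± 0.05 (adjusted p = 1.7e-11).

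CDKN1A, the cyclin-dependent kinase inhibitor p21, was the 1 other gene of the pathway called higher in all 3 lines. It went from 1384 ± 83.4 to 1568 ± 61.5 in MDA-MB-175 (0.18 ± 0.05, adjusted p = 0.01), from 534 ± 19.9 to 1028 ± 51.04 in ZR-75-30 (0.94 ± 0.04, adjusted p = 9.7e-12) and from 1886 ± 37.3 to 3714 ± 1120.0 in HCC1500 (0.94 ± 0.17, adjusted p = 0.0064, and 0.74 ± 0.03 without replicate 3). MYC rose in HCC1500, from 257 ± 7.81 to 462 ± 126 (0.81 ± 0.16, adjusted p = 0.0091). In MDA-MB-175 the MYC change was 0.42 ± 0.17 (adjusted p = 0.076), past the threshold without high glucose replicate 3 or with edgeR (0.52 and 0.47), and in ZR-75-30 0.03 ± 0.04 (adjusted p = 0.63). The MYC change in HCC1500 exceeded that in MDA-MB-175 by 0.39 ± 0.18, or by 0.21 ± 0.12 without HCC1500 high glucose replicate 3.

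Over all 55 other genes of the pathway, 22 of 54 tested were lower and 6 higher in MDA-MB-175, where 25.7% of all genes were called in either direction. In ZR-75-30 it was 25 lower and 6 higher of 53 (46% of all genes called), and in HCC1500 11 lower and 4 higher of 54 (20.5%), or 31 lower and 5 higher of 53 without replicate 3 (58.5%). Their median log2 change was -0.11, -0.18 and -0.11 in the 3 lines, beside -0.023, 0.012 and -0.064 over all tested genes, and -0.28 beside -0.12 in HCC1500 without replicate 3. Of 52 genes tested in all 3 lines, 9 were lower in all and 1 higher in all, against 3.32% and 1.81% of all genes, and without replicate 3 it was 16 and 1, against 6.74% and 3.73%. The glucose change differed between lines for 22 of the 55 (limma F test, 29.3% of 18144 genes), and for 36 without replicate 3 (48.6% of 18127 genes).

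**Figure D4:**
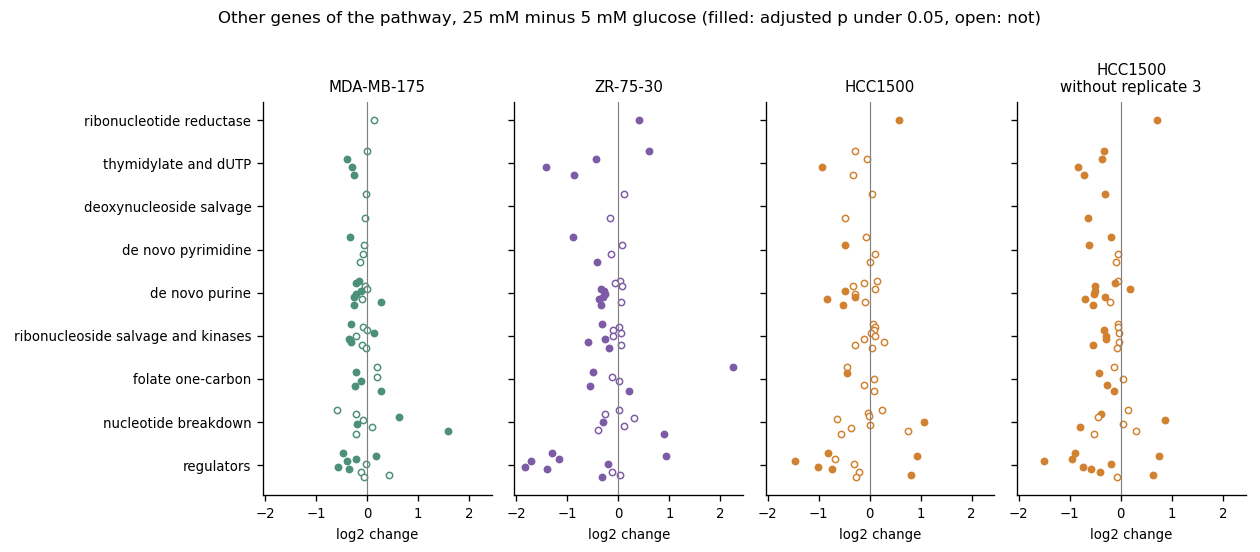
Log2 change, 25 mM minus 5 mM glucose, of the other 55 genes of the pathway where tested (horizontal axis), by group of the pathway (rows), with 1 panel for each line and another for HCC1500 without high glucose replicate 3; each point is a gene, filled where its adjusted p was under 0.05. Filled points lie mostly left of 0, with 22 lower and 6 higher for MDA-MB-175, 25 and 6 for ZR-75-30, and 11 and 4 for HCC1500.

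Cell cycle markers moved with these genes. Of 20 S phase markers, 18 were lower for MDA-MB-175, 20 for ZR-75-30, and 14 for HCC1500 (19 without replicate 3), and of 20 G2/M markers 19, 20 and 20 were lower. None of the 40 was higher in these fits. Lower calls made up 13.7%, 22.7% and 13% of all tested genes, and 37.7% in HCC1500 without replicate 3. Summed over the S phase markers, values were 12132 to 12827 at low and 9651 to 10305 at high glucose in MDA-MB-175. In ZR-75-30 the sums were 15287 to 15534 and 7571 to 8211, and in HCC1500 8578 to 8905 and 5324 to 5406, with 7721 in replicate 3. The G2/M sums were at least 19164 at low and at most 14592 at high glucose in MDA-MB-175, at least 13129 and at most 7709 in ZR-75-30, and at least 7595 and at most 2881 in HCC1500, with 3319 in replicate 3. In bulk RNA, fewer cycling cells and less RNA per cell cannot be told apart, and the part of cycling cells in the values above was not tested.

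Levels of the 9 genes also differed between the lines in low glucose, a comparison that does not involve replicate 3. It uses the low glucose cultures that also entered the contrast by which the genes were chosen, so its calls and p-values for these genes are given as a description. Of 27 combinations of a gene and a pair of lines, 22 differed (limma on the 12 low glucose cultures, adjusted p under 0.05 over all genes), where 73.1% of 17739 genes differed between ZR-75-30 and MDA-MB-175, 80.6% between HCC1500 and MDA-MB-175 and 80.4% between HCC1500 and ZR-75-30. Relative to MDA-MB-175, 2 of the 9 genes were higher and 4 lower in ZR-75-30 (28.8% and 44.3% of all genes), and 3 higher and 5 lower in HCC1500 (42.2% and 38.4%). Relative to ZR-75-30, 4 were higher and 4 lower in HCC1500 (48% and 32.4%). RRM2 was at 1144 ± 56.96 (SD, n = 4) for MDA-MB-175, 1106 ± 56.5 for ZR-75-30, and 517 ± 21.1 for HCC1500. It was 0.452-fold in HCC1500 relative to MDA-MB-175 (log2 difference -1.14 ± 0.05, adjusted p = 5.3e-12), and -0.05 ± 0.05 between ZR-75-30 and MDA-MB-175 did not pass (adjusted p = 0.36). RRM1 was likewise lowest in HCC1500, with a difference from MDA-MB-175 of -0.54 ± 0.03 (adjusted p = 1.3e-09), with no difference called between the other 2 (0.03 ± 0.03, adjusted p = 0.52). DUT was lowest in HCC1500, at 134 ± 11.02 against 347 ± 13.9 in MDA-MB-175 (-1.37 ± 0.06, adjusted p = 2.2e-11) and 373 ± 23.3 in ZR-75-30. The 2 higher lines did not differ in DUT past the threshold (0.10 ± 0.06, adjusted p = 0.16). The order of ZR-75-30 and MDA-MB-175 depended on scaling for all 3 genes: rescaled to a common total, the log2 difference was -0.28 for RRM2 and -0.21 for RRM1, both called, and -0.13 for DUT, and with median-of-ratios scaling it was 0.051, 0.13 and 0.20, the last 2 called. The median difference over all genes moved with scaling too, from -0.18 as deposited to -0.26 and -0.10 between these lines, and from 0.25 to 0.39 and 0.12 between HCC1500 and ZR-75-30.

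The salvage kinases were highest in HCC1500. TK1 was there at 574 ± 26.2, in MDA-MB-175 at 333 ± 35.6 and in ZR-75-30 at 272 ± 16.5, with HCC1500 2.11-fold over ZR-75-30 (adjusted p = 1.7e-09) and ZR-75-30 minus MDA-MB-175 at -0.28 ± 0.07 (adjusted p = 0.0024), although 1 culture overlapped. DCK kept that order, at 535 ± 15.9, 343 ± 3.27 and 231 ± 18.3, and HCC1500 was 2.31-fold over ZR-75-30 (adjusted p = 7.4e-12). IMPDH2 differed most of the set between the lines. It was at 1753 ± 44.6 in ZR-75-30, 3.24-fold over HCC1500 (541 ± 29.3, adjusted p = 6.9e-14) and 2.10-fold over MDA-MB-175 (834 ± 52.5, adjusted p = 2.5e-11). PPAT ran from 227 ± 8.84 in MDA-MB-175 through 315 ± 29.2 in ZR-75-30 to 384 ± 11.3 in HCC1500, and each step differed (adjusted p = 5.2e-06 and 4.8e-04), the second not with edgeR. TYMS was higher in MDA-MB-175 (360.2 ± 17.1) than in ZR-75-30 (303 ± 13.3, adjusted p = 2.3e-04) and HCC1500 (291 ± 10.1, adjusted p = 2.8e-05), which did not differ from each other past the threshold as deposited (-0.06 ± 0.05, adjusted p = 0.3). The sign of that difference depended on scaling: HCC1500 was called higher than ZR-75-30 when values were rescaled to a common total (0.30), and called lower with median-of-ratios scaling (-0.20), edgeR (-0.22) and DESeq2 (-0.20). CAD was at 404 ± 26.5, 338 ± 40.4 and 386 ± 21.7 in the 3 lines. The calls of CAD between ZR-75-30 and both other lines (adjusted p = 0.0066 and 0.028) depended on the processing. HCC1500 minus ZR-75-30 went from 0.20 ± 0.08 to 0.055 with median-of-ratios scaling, 0.016 with edgeR and 0.042 with DESeq2, and was not called then, nor on leaving out ZR-75-30 low glucose replicate 1 or 4 or HCC1500 low glucose replicate 4. ZR-75-30 minus MDA-MB-175 went from -0.26 ± 0.08 to -0.16 with median-of-ratios scaling and -0.15 with DESeq2, neither called.

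With the deposited scaling, the order of the lines in high glucose differed from that in low glucose for several genes. Part of this depended on scaling. Rescaled to a common total, RRM1 (-0.21) and DUT (-0.13) for ZR-75-30 minus MDA-MB-175 already had their high glucose sign at low glucose. So did TYMS (0.30) for HCC1500 minus ZR-75-30. The high glucose differences are given with the deposited scaling only. For TK1, HCC1500 exceeded MDA-MB-175 by 0.79 ± 0.07 on the log2 scale at low glucose (adjusted p = 7.1e-08), and at high glucose the difference was -0.14, not called, or -0.44, called, without replicate 3. For TYMS, HCC1500 minus ZR-75-30 went from -0.06 ± 0.05, not called, to 0.56, called (0.37 without replicate 3, also called). For RRM1, ZR-75-30 minus MDA-MB-175 went from 0.03 ± 0.03, not called, to -0.45, called. Signs also turned for DUT between these 2 lines (-0.45 at high glucose) and for CAD between HCC1500 and ZR-75-30 (-0.02), neither called at high glucose with all cultures in the fit. For RRM2 the difference of ZR-75-30 from MDA-MB-175 went from -0.05 ± 0.05 to -1.66, and that of HCC1500 from -1.14 ± 0.05 to -2.34. For PPAT, HCC1500 over MDA-MB-175 went from 0.75 ± 0.06 to 1.36.

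Per kilobase of transcript at low glucose, which allows genes to be compared within a group, IMPDH2 was the most abundant of the 9 in MDA-MB-175 (505 ± 31.8 per kilobase, SD) and ZR-75-30 (1062 ± 27.01), followed by RRM1 (497 ± 17.5 and 506 ± 15.4). In MDA-MB-175 these 2 differed by less than 1 SD of IMPDH2. In HCC1500 TK1 led (401 ± 18.3), ahead of RRM1 (343 ± 9.37) and IMPDH2 (328 ± 17.8), the last 2 of which lay within 1 SD of IMPDH2. CAD was the least abundant per kilobase in all 3 lines at low glucose (means of 46.3 to 55.4 per kilobase).

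The genes whose pattern over the 24 cultures was most like that of RRM2, by Pearson's r of log2(value + 1) after each line's mean was subtracted, were ZWILCH (0.993), SQLE (0.991), LMNB1 (0.989), CDC6 (0.989) and WDR76 (0.987), among 10897 genes that averaged 10 or more in each line. The 24 points share the 6 groups, so the values are a description. Of the set, RRM1 stood at 0.979, in place 22, TYMS at 0.913, TK1 at 0.907 and DUT at 0.855, and without HCC1500 high glucose replicate 3 these were 0.9802, 0.975, 0.955 and 0.968. CAD (0.566), DCK (0.564), PPAT (0.269) and IMPDH2 (-0.56) were further off, and RRM2B had -0.87. ZWILCH is a kinetochore protein, LMNB1 a nuclear lamin, CDC6 a licensing factor of replication origins, and SQLE an enzyme of cholesterol synthesis.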

How the data were processed

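RNA of 24 cultures was sequenced on Illumina HiSeq instruments, and 1 table of normalized values was deposited. Its signal values were made by the authors as whole reads divided by 1 factor per culture: in every culture 100% of values were whole multiples of the smallest (tolerance 0.02), and columns summed to 5559394 to 7594840, so they are not CPM. The submitters' processing notes name hg38 and edgeR, the study's methods for its tumors hg19, and the aligner and strand setting for these cultures are not given in the sources used here. A scaling factor per culture sets any fold change between conditions, hence the rescaled alternatives.

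Values were tested as log2(value + 1) with limma 3.58.1 (R 4.3.3), with an intensity trend, within each line over 8 cultures, after keeping genes at 0.5 or more in 4 cultures, with Benjamini-Hochberg adjustment over all genes and a threshold of 0.05. Fold changes on this scale understate those of low genes. Lines were compared over the 12 low glucose cultures, and a line by glucose interaction over all 24. Alternatives were pseudocounts of 0.1 and 5, no filter, 2 rescalings, edgeR 4.0.16 and DESeq2 1.42.0 on the recovered reads, the replicate number as a block, and leaving out each culture. On data simulated after MDA-MB-175, the fit recovered 83 of 96 genes changed 1.5-fold and 103 of 104 changed 2-fold, with 4 false calls among 17164 genes. The simulation gave all genes the same assumed dispersion and changed only genes above a minimum mean. It held no culture that stood apart, so it does not speak for HCC1500 with replicate 3. No 2 cultures had identical values, and replicate pairs of a group differed beyond counting noise.

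The 9 genes and the gene lists were chosen with earlier results of these data known. Named besides them were RRM2B, DTYMK, SHMT2, MTHFD2, E2F1 and MYC, every other listed gene called with 1 sign in all 3 lines, the 2 called genes of each line that rose most and the 2 that fell most at a mean of 10 or more, and the 5 genes most like RRM2. A gene that this rule names is not reported here, though the counts over the pathway hold it. TK2 and DGUOK were named after their values were seen. Coordinates are from the GENCODE release 44 annotation on GRCh37, and promoters from RefSeq on GRCh38.p14.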

Additional observations from a re-analysis of the deposited data

Results flagged for a closer look

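Of 60 groups of 4 cultures checked for a culture far from the rest, 8 had one, where chance gives about 1 in 20. Of these, 4 were HCC1500 high glucose replicate 3, with TK1 at 459.64 (the other 3 at 198 to 208), DUT at 154.45 (53.2 to 69.2), TYMS at 294.79 (166 to 183) and IMPDH2 at 1168 (569 to 633). The others were RRM2 in MDA-MB-175 high glucose replicate 4, at 798.08 (778 to 780.5), CAD in the same culture, at 346.99 (386 to 389), DUT in HCC1500 low glucose replicate 1, at 150.5 (127 to 130.0), and DUT in MDA-MB-175 low glucose replicate 3, at 326.83 (352 to 356).

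Many of the named genes outside the set were picked by their changes in these cultures, so the count here is a description. Over all genes, 29.3% of 18144 differed in glucose response between the 3 lines (limma F test of the line by glucose interaction, adjusted over all genes). By the same test, 12 of the 19 named genes outside the set differed. These were DCTD (adjusted p = 1.3e-06), PNP (adjusted p = 5.0e-06), E2F2 (adjusted p = 1.3e-05), CCNF (adjusted p = 7.4e-05), E2F8 (adjusted p = 2.1e-04), CDKN1A (adjusted p = 8.4e-04), GMPS and MTHFD1 (both 0.0013), E2F7 (adjusted p = 0.0061), MYC (adjusted p = 0.007), E2F1 (adjusted p = 0.012) and RRM2B (adjusted p = 0.014). For MTHFD1, E2F2, E2F7, E2F8 and CCNF the log2 change was negative in the fit of each line, with the smallest size in MDA-MB-175. For PNP the change was 1.08 ± 0.19 in HCC1500 and -0.30 ± 0.05 in ZR-75-30.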

How the results depend on the processing

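In HCC1500, leaving out high glucose replicate 3 moved the calls among the 9 genes from 5 to 9, among the other pathway genes from 15 to 36 and, for the line by glucose interaction, from 22 to 36. Over all genes the calls in HCC1500 went from 3350 to 9504. DESeq2 called 8 of the 9 genes in HCC1500. Over all genes the count tests called 4402 (edgeR) and 3929 (DESeq2) in MDA-MB-175, where limma called 4368, then 7397 and 6585 against 7290 in ZR-75-30, and 3576 and 4432 against 3350 in HCC1500. Leaving out each culture in turn gave 7 to 8 calls of the 9 genes in MDA-MB-175, 7 to 8 in ZR-75-30 and 4 to 9 in HCC1500, 21 to 31, 30 to 32 and 11 to 36 calls of the other pathway genes, 21 to 22 between lines, and 20 to 36 for the interaction. The other counts over the 9 genes, the other pathway genes, the line differences and the interaction stayed within 1.5 times under every alternative run, and DESeq2 was not run for the interaction.

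Deviations of same-numbered replicates had mean correlations of 0.036, 0.012 and 0.024 for MDA-MB-175, then ZR-75-30, then HCC1500. Those of different numbers were -0.012, -0.004 and -0.008. Each group's mean was subtracted first, so the values for different numbers largely follow from the others and are no separate baseline. The correlations were weak, but this check cannot tell whether the numbers pair the cultures. With the replicate number as a block, 8, 7 and 4 of the 9 genes and 28, 32 and 12 of the other pathway genes were called in the 3 lines, 22 differences between lines and 21 interactions, and over all genes 4525, 7542 and 1964, the last against 3350 without the block. In HCC1500 PPAT (0.37), PAICS (-0.29) and E2F8 (-0.74), and in MDA-MB-175 MTHFD2 (-0.11), were not called with the block, whereas the other calls of the 9 genes and of the pathway genes named by rule stayed as they were.

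Changes that turned sign were small in most cases. On rescaling to a common total these were DCK (-0.0025), MTHFD2 (-0.032) and MYC (-0.0096) in ZR-75-30, and between lines RRM1 (-0.21) and DUT (-0.13) for ZR-75-30 minus MDA-MB-175, CAD (0.056) for HCC1500 minus MDA-MB-175 and TYMS (0.30) for HCC1500 minus ZR-75-30. RRM2 for ZR-75-30 minus MDA-MB-175 turned to 0.051 with median-of-ratios scaling, 0.048 with edgeR and 0.049 with DESeq2, and DCTD in MDA-MB-175 to 0.022, 0.024 and 0.021. On leaving out 1 culture, DCTD in MDA-MB-175 ranged from -0.016 to 0.019, MTHFD2 in ZR-75-30 from -0.014 to 0.023, and SHMT2 in HCC1500 from -0.13 to 0.16. Of the remaining alternatives for single genes, 403 of the changes of the 9 genes, 514 of their line differences and 830 of the changes of named pathway genes kept their direction and their side of the threshold, whereas 16, 9 and 56 lost the call and 12, 10 and 9 gained it. The cause was not tested.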
